A study of Mus musculus with 3 samples.

Results

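The genes described here are Lrp2, Cubn, Amn and Dab2, which code for the megalin-cubilin uptake machinery of the proximal tubule. They were chosen by name for this role, with earlier results of these data known. All 4 were found in each of the 3 count tables, and they are 4 of the 17864 gene symbols that the tables share. Transcripts of single cells were counted in wild-type kidney of E14.5 mouse embryos (a mixed strain, mostly CD-1, and 129), in 3 libraries. The libraries were made with Drop-seq and 10x Chromium, which capture cells in droplets and count molecules by unique molecular identifiers (UMIs), and with Fluidigm C1, which captures cells in chip chambers and is given as read counts. Each platform has 1 library, nothing in the labels says whether the libraries came from the same or separate embryos, and all cells are wild type with no treatment. The cell class of interest, proximal precursors (the epithelial cells fated to become proximal tubule), was set against the other cell classes of the same library.

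Megalin, the product of Lrp2, is a large endocytic receptor of the LDL receptor family in the apical membrane of proximal tubule cells, where it retrieves filtered proteins and carrier-bound vitamins from the tubule fluid. Cubilin, the product of Cubn, has no membrane span of its own and needs amnionless, the product of Amn, to reach the cell surface. Disabled-2, the product of Dab2, is an adaptor that binds the cytoplasmic tail of megalin and links it to the clathrin coat, and it acts with other receptors in other cell types, macrophages among them.

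After filtering, Drop-seq had 1964 cells with a median of 7060 UMIs, 10x had 2130 with 7369 UMIs, and C1 had 884 with 166639 reads. No barcode was shared between libraries. Proximal precursors numbered 121 in Drop-seq (6.16% of the cells kept), 200 in the 10x library (9.39%) and 71 in the C1 library (8.03%). The class was named from 20 marker genes, of which 20, 19 and 17 (Drop-seq, 10x, C1) had a higher level in it than in the remaining cells, and Ass1 and Slc5a2 were at 0 in the C1 class. Hnf4a, the nuclear receptor needed for proximal tubule formation, was found in 38.8%, 69.0% and 100% of the class in Drop-seq, 10x and C1. These markers chose the class and are no result, and none of the 4 genes served for clustering or naming. Markers of early nephron epithelium, from which the class forms, summed to 871, 593 and 537 CPM (counts of a gene per 1000000 counts of the class) in proximal precursors of Drop-seq, 10x and C1, against 3320, 2629 and 1474 CPM in the early nephron class, with 0 of 11 markers absent. In C1 that early nephron class is a cluster of 35 cells whose leading genes include the haemoglobin genes Hbb-y and Hba-x. The intervals given for levels and shares are exact 95% intervals that cover counting error only, and PCR copies of a molecule are not told apart in C1.

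Lrp2 (ENSMUSG00000027070.14) lies on chromosome 2 from 69424340 to 69586065 on the minus strand of the mouse genome build GRCm38, and Cubn (ENSMUSG00000026726.10) on the same chromosome from 13276338 to 13491813 on the minus strand. Amn (ENSMUSG00000021278.7) lies on chromosome 12 from 111271095 to 111276426 and Dab2 (ENSMUSG00000022150.16) on chromosome 15 from 6299788 to 6440712, both on the plus strand. The exons of Lrp2 and Amn overlap no other annotated gene. Of the 14935 exonic bases of Cubn, 368 overlap Gm13270 on the opposite strand, and of the 7342 of Dab2, 211 overlap the pseudogene Gm18888 on the opposite strand. Strand use in the counting was not given in the sources used here. Promoter windows, from 250 bases before to 50 bases after a start site, are shown next. They are given because Lrp2, Cubn and Amn were high in the same class, while Dab2 was also high in other cells, immune cells above all. The sequences are from RefSeq (GRCm38.p6), read 5′ to 3′ on the gene's own strand, and capitals mark a match to a searched motif.
Lrp2, chr2:69585980-69586279, minus strand: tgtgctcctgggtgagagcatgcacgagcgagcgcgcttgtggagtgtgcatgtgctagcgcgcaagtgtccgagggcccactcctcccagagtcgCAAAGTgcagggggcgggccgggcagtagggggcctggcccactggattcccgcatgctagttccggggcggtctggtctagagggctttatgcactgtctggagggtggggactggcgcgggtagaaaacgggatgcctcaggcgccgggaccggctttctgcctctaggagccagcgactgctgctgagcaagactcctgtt
Cubn, chr2:13491827-13492126, minus strand: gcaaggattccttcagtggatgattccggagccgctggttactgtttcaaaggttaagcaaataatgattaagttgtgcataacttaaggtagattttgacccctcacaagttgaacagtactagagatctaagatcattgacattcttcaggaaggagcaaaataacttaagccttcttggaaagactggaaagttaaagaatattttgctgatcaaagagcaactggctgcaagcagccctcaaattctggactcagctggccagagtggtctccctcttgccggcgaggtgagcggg
Amn, chr12:111270846-111271145, plus strand: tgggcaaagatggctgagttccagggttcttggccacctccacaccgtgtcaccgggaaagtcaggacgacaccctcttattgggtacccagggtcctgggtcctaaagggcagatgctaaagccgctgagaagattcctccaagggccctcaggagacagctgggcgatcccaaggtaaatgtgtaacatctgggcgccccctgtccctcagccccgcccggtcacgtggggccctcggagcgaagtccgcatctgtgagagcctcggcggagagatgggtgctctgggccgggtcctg
Dab2, upstream start, chr15:6299539-6299838, plus strand: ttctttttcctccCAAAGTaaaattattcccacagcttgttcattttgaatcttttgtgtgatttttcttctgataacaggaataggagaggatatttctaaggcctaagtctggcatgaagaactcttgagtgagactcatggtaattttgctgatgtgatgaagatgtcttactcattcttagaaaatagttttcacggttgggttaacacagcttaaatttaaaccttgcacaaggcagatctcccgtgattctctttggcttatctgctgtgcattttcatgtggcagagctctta
Dab2, downstream start, chr15:6386498-6386797, plus strand: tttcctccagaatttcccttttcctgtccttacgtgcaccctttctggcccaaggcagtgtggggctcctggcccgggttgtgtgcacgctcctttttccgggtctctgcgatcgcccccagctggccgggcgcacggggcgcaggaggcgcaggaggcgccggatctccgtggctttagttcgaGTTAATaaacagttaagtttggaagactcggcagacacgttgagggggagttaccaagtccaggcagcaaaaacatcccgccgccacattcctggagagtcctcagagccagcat
The 4 motifs were searched on both strands and do not overlap in these windows. The HNF4 core CAAAGT was found in the Lrp2 window, 154 bases before the start site, and in the upstream Dab2 window, 237 bases before the start site. The HNF1 half-site GTTAAT was found in the downstream Dab2 window, 65 bases before the start site. Neither the nuclear receptor half-site AGGTCA nor the TATA box was found in any of these windows, and those of Cubn and Amn held none of the 4 motifs. Of 32851 windows of the same length, 14.4% held the HNF4 core, 7.10% the HNF1 half-site, 16.3% the nuclear receptor half-site and 13.6% the TATA box, searched as TATAAA. GC content was 65.0% for Lrp2, 62.3% for Amn, 44.3% for Cubn, and 37.7% and 59.3% for the upstream and downstream Dab2 windows, beside a median of 52.7% over all windows.

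All 4 genes were higher in proximal precursors than in the mean of the other classes. Lrp2, the receptor gene, had a log2 fold change of 4.73 (SE 0.34, edgeR adjusted p = 1.65e-08). Cubn, its partner receptor, had one of 6.70 (SE 0.70, adjusted p = 1.29e-06), and Amn one of 6.58 (SE 0.50, adjusted p = 1.57e-07). Dab2, the adaptor, had the smallest fitted difference, at 2.25 (SE 0.15, adjusted p = 5.27e-10). Of 7237 genes tested, 6.22% were called higher in this comparison and 2.11% lower. The test was edgeR's quasi-likelihood F test on counts summed per class and library, with the library as a block and p-values adjusted by Benjamini-Hochberg. It sets the class difference against the spread left among 24 class sums of 3 libraries that differ in platform. The classes were cut from the same cells, so genes that vary with the marker genes had to differ to some degree even where they did not serve for clustering. Counts of Cubn and Amn are 0 in some class sums, so their fitted values depend on the prior count and give no bound. Cubn reached the filter's minimum in 0 of the 21 sums of other classes and passed only through its 3 proximal sums, so it had to differ and its call supports nothing.

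**Figure D1:**
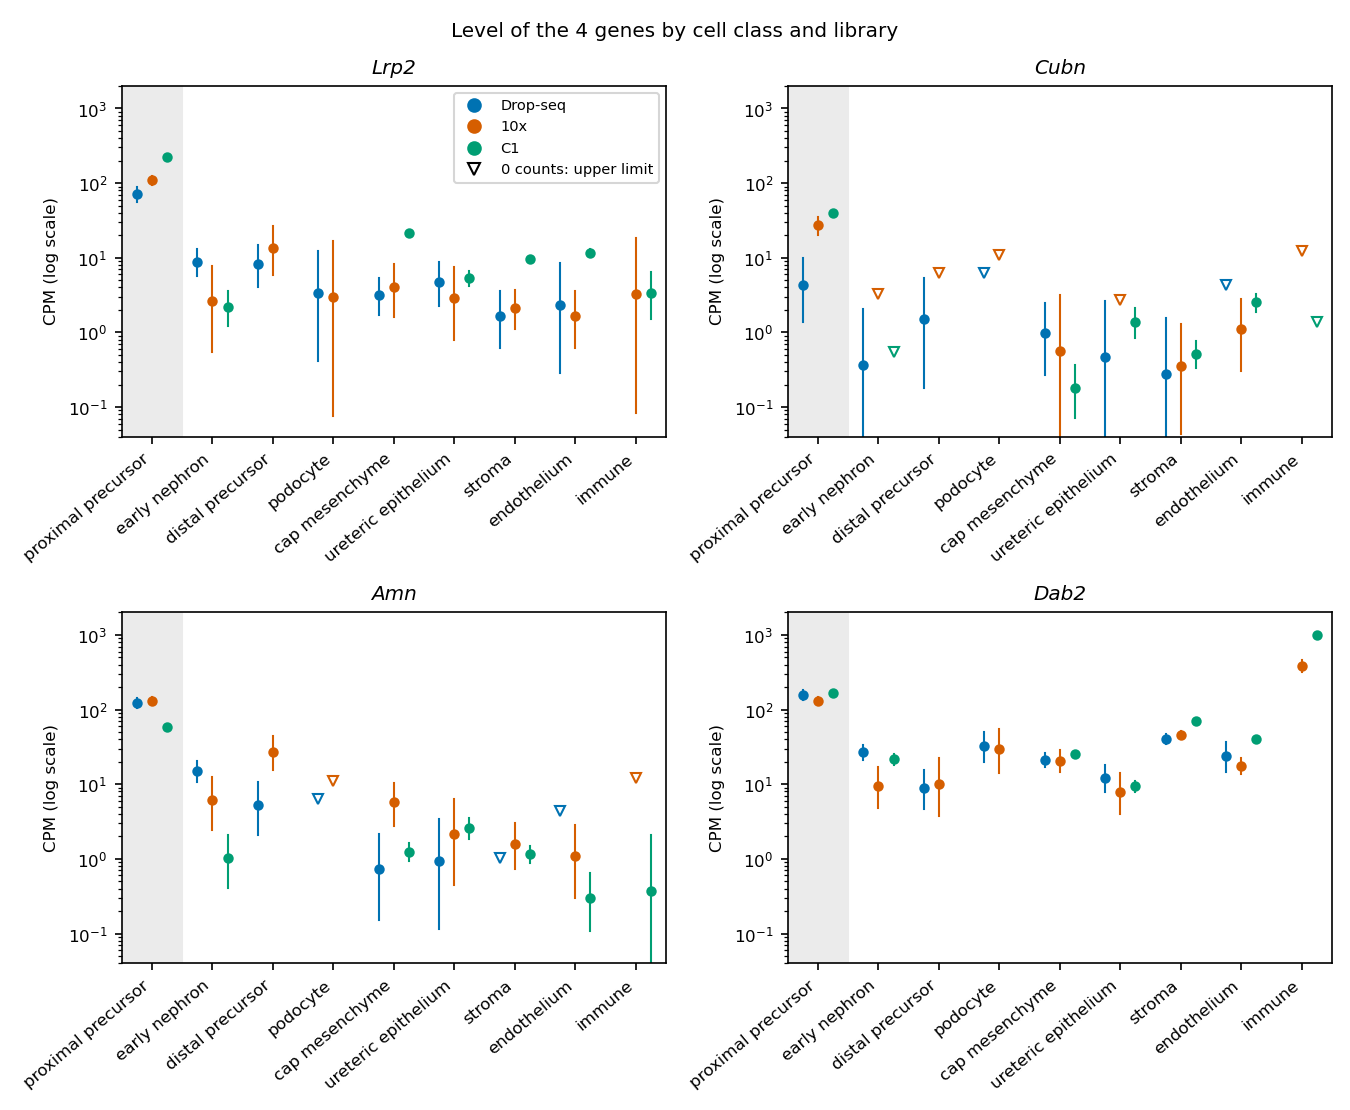
Level of Lrp2, Cubn, Amn and Dab2 in CPM (log axis) by cell class and library; points are class sums, lines exact 95% Poisson intervals and open triangles the upper limit of a class at 0 counts, with proximal precursors on the grey band. Lrp2, Cubn and Amn are highest in proximal precursors of each library, while Dab2 reaches 383 and 993 CPM in immune cells of 10x and C1.

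Lrp2 stood at 70.6 CPM (56.3 to 87.6) in proximal precursors of Drop-seq, at 110 CPM (95.8 to 126) in those of 10x and at 225 CPM (218 to 232) in those of C1. The other named classes of the same libraries together had 4.43, 2.85 and 12.5 CPM. In these sums, as in the fit and the counts of other classes, the Drop-seq erythroid cluster and the unnamed cells are left out. The proximal level was therefore 15.9 times that of the others (11.4 to 22.3) with Drop-seq, 38.6 times (27.6 to 55.1) with 10x and 18.1 times (17.05 to 19.1) with C1. Each of the 7, 8 and 6 other classes of Drop-seq, 10x and C1 lay below the proximal level with no overlap of intervals. Next in order came early nephron at 8.77 CPM (5.62 to 13.05) and distal precursors at 8.19 CPM (4.09 to 14.7) in Drop-seq, whose intervals overlap. Within Drop-seq early nephron, Lrp2 was at 12.02, 17.5, 4.01 and 0 CPM in subclusters of 63, 56, 80 and 73 cells. Hnf4a was at 42.1, 10.5, 9.36 and 0 CPM in the same order. Of these Lrp2 intervals, only those of 56 cells (9.82 to 28.9 CPM) and 73 cells (up to 5.81 CPM) lie apart. In 10x the next was the distal precursor class, at 13.6 CPM (5.87 to 26.8), and its interval overlaps those of cap mesenchyme, early nephron, podocytes, ureteric epithelium and immune cells but lies above those of stroma and endothelium. In C1 the next was cap mesenchyme, the nephron progenitors, at 21.1 CPM (19.7 to 22.6), of which 1 of 209 cells gave 20.6%. The C1 cap mesenchyme clusters of 127 and 82 cells had 34.2 and 2.42 CPM of Lrp2. They had 98.5 and 1.49 CPM of Osr2, 146 and 4.16 CPM of Jag1, and 12.7 and 0.435 CPM of Hnf4a. Endothelium of C1, which should lack Lrp2, had 11.7 CPM (10.3 to 13.3), of which 1 of 78 cells gave 57.8%.

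A Lrp2 count was found in 39.7% (30.9 to 49.0%) of proximal precursors by Drop-seq, 50.5% (43.4 to 57.6%) by 10x and 81.7% (70.7 to 89.9%) by C1. Endothelial cells gave the background, at 0.980%, 1.63% and 19.2% in the same libraries. Median depths were 7948, 8840.5 and 250809 counts in proximal precursors and 6910.5, 8914 and 209362 in endothelium of Drop-seq, 10x and C1. The C1 shares of cap mesenchyme (16.3%), stroma (12.8%), ureteric epithelium (16.7%) and early nephron (11.4%) all lay below the endothelial share and are not read as expression, although the level in cap mesenchyme lay above that of endothelium. At 4000 UMIs per cell Lrp2 was found in 21.8% of Drop-seq and 33.7% of 10x proximal precursors, against 0 of 102 endothelial cells in Drop-seq, which allows up to 2.94%, and 0.298% in 10x. At 50000 reads per C1 cell the shares were 78.9% of proximal precursors and 10.96% of endothelial cells.

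**Figure D2:**
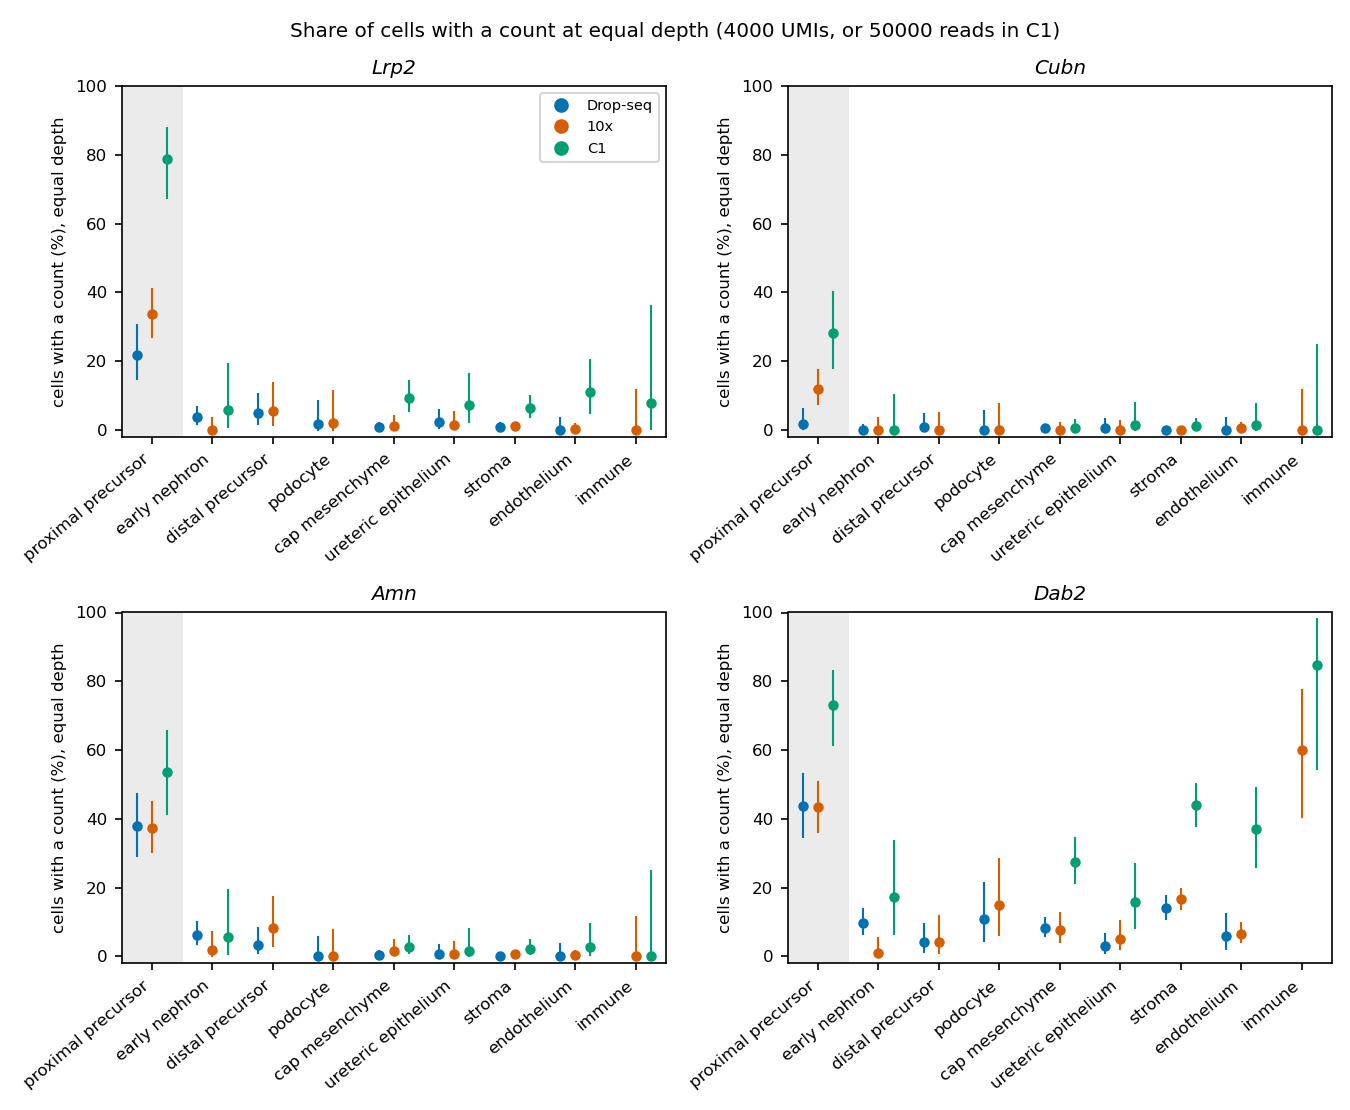
Percent of cells with a count of each gene after every cell was thinned to 4000 UMIs (50000 reads in C1), by class and library; lines are exact 95% binomial intervals and shallower cells are left out. Proximal precursors, on the grey band, reach 21.8 to 78.9% for Lrp2 and 1.68 to 28.2% for Cubn.

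Cubn gave few counts, with 4.26 CPM (1.38 to 9.93; 5 UMIs) in proximal precursors of Drop-seq, 27.1 CPM (20.3 to 35.5; 53 UMIs) in those of 10x and 39.9 CPM (37.1 to 42.8) in those of C1. In the other named classes together it had 0.586, 0.475 and 0.783 CPM in these libraries. The ratios were 7.26 (1.91 to 24.1), 57.1 (25.9 to 149) and 50.9 (41.4 to 63.2). In 10x and C1 no other class reached the proximal interval. In Drop-seq 0 of the 7 other classes had an interval apart from that of proximal precursors. The shares of proximal precursors with Cubn were 4.13%, 18.5% and 38.0% in Drop-seq, 10x and C1, against 0 of 102 (up to 2.94%), 0.813% and 3.85% of endothelial cells. At equal depth the proximal shares were 1.68%, 11.8% and 28.2%. Of the 51 Cubn reads in C1 endothelium, 96.1% came from 1 cell.

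Amn stood at 123 CPM (104 to 145) in proximal precursors of Drop-seq, at 130 CPM (114 to 147) in those of 10x and at 57.8 CPM (54.5 to 61.3) in those of C1, against 3.45, 3.32 and 1.19 CPM in the other named classes together. The ratios were 35.7 (25.9 to 49.9), 39.1 (28.7 to 54.2) and 48.6 (41.0 to 57.9). It was found in 49.6%, 60.0% and 62.0% of proximal precursors of Drop-seq, 10x and C1. Endothelial shares were 0 of 102 cells (up to 2.94%), 0.813% and 2.56%. Other nephron epithelium also held Amn, with intervals above that of endothelium in early nephron epithelium of Drop-seq and in distal precursors of 10x. In Drop-seq it reached 14.98 CPM (10.7 to 20.3) and 11.4% of cells in early nephron epithelium, with 5.21 CPM (2.096 to 10.7) in distal precursors. In 10x it reached 27.2 CPM (15.5 to 44.2) and 12.7% of cells in distal precursors, where 1 cell gave 5 of 16 UMIs. Early nephron epithelium of 10x had 6.11 CPM (2.46 to 12.6), and cap mesenchyme a like level of 5.72 CPM (2.74 to 10.5). In C1 early nephron had 1.03 CPM (0.413 to 2.12), below cap mesenchyme (1.25 CPM) and ureteric epithelium (2.61 CPM). The fitted difference of early nephron from the mean of the other classes was 2.28 (SE 0.91, edgeR adjusted p = 0.115) and that of distal precursors 2.88 (SE 1.07, adjusted p = 0.181), so neither passed, although both were under the threshold before adjustment. Each passed in 6 alternative settings, DESeq2 among them for early nephron (1.91, adjusted p = 0.0442).

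Dab2 stood at 158 CPM (136 to 183) in proximal precursors of Drop-seq, at 129 CPM (114 to 146) in those of 10x and at 168 CPM (162 to 173) in those of C1. The other named classes together had 24.96, 34.9 and 61.6 CPM, and the ratios were 6.34 (5.30 to 7.58), 3.71 (3.18 to 4.32) and 2.72 (2.61 to 2.83). With its erythroid cluster among the others, Drop-seq had 28.3 CPM in them and a ratio of 5.59 (4.69 to 6.65). A Dab2 count was found in 62.8%, 61.5% and 78.9% of proximal precursors. In immune cells, a class whose leading genes Tyrobp, Fcer1g and C1qb are those of macrophages, Dab2 was at 383 CPM (317 to 460) in 10x and 993 CPM (956 to 1032) in C1, above proximal precursors in each. It was found in 22 of 55 immune cells of 10x and 12 of 14 of C1. Immune markers themselves summed to 4.26, 2.56 and 2.995 CPM in proximal precursors of Drop-seq, 10x and C1, against 8297 and 5063 CPM in immune cells of 10x and C1, and 4, 5 and 3 of the 9 markers were at 0 there. Drop-seq had no immune class in this clustering. A Drop-seq cluster of 60 cells named erythroid had 134 CPM of Dab2 (104 to 171), an interval that overlaps the proximal one, all from 10 cells, and 9 of these 10 held 3 or more counts of immune markers. At a finer clustering (Leiden resolution 1.6) Drop-seq had 11 immune cells with 837 CPM of Dab2, found in 9 of them.

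Among the classes of the fit, stroma came next for Dab2 after immune cells and proximal precursors, with 40.5 CPM (34.2 to 47.6), 46.4 CPM (40.9 to 52.3) and 69.7 CPM (67.3 to 72.1) in the 3 libraries. Stroma of 10x was not uniform. Its cluster of 59 cells had 146 CPM of Dab2 (109 to 193), an interval that overlaps that of 10x proximal precursors (114 to 146). The other 10x stroma clusters had 14.9 to 72.7 CPM. Those of Drop-seq had 35.2 to 46.3 CPM and those of C1 58.6 to 90.6 CPM. Podocytes had 32.5 CPM (19.6 to 50.8) in Drop-seq and 29.9 CPM (14.4 to 55.1) in 10x, with intervals that overlap those of stroma. Endothelium had 23.6, 17.7 and 39.95 CPM, and cap mesenchyme 21.2, 20.6 and 25.7 CPM. The lowest levels were those of distal precursors (8.94 CPM in Drop-seq and 10.2 in 10x) and ureteric epithelium (12.2, 7.98 and 9.34 CPM in Drop-seq, 10x and C1). In the fit, Dab2 was higher in immune cells than in the mean of the other classes (4.69, SE 0.17, edgeR adjusted p = 2.04e-15; 12.2% of genes were called higher there); with 10x or C1 left out the immune class is in 1 library and was not fitted. It was lower in ureteric epithelium (-2.37, adjusted p = 6.03e-07; 1.37% of genes called lower) and in distal precursors (-2.26, adjusted p = 0.000593; 0.663% called lower). Early nephron epithelium (-1.04, adjusted p = 0.00282; 1.69% called lower) and cap mesenchyme (-0.88, adjusted p = 0.0071; 1.62% called lower) passed as well. These last calls did not hold without 10x (-0.55, adjusted p = 0.192, and -0.71, adjusted p = 0.210) or without C1 (-0.39, adjusted p = 0.339, and -0.25, adjusted p = 0.5005). The early nephron call was also lost without the haemoglobin-led C1 class, an alternative chosen after the data were seen (-0.92, adjusted p = 0.0653). Stroma (0.43, adjusted p = 0.106; 6.11% called higher, 4.15% lower), endothelium (-0.49, adjusted p = 0.0862; 4.31% called lower) and podocytes (-0.33, adjusted p = 0.738) did not pass. Without C1, stroma was higher (0.93, adjusted p = 0.000336), as it was in 3 other alternatives (0.51 to 1.08, the largest with the C1 name groups apart). Endothelium was called lower in 4 alternatives, with 1000 variable genes (-0.61, adjusted p = 0.00442), by z score (-0.81, adjusted p = 0.00131), with no doublet removed (-0.63, adjusted p = 0.00816) and at Leiden resolution 1.6 (-0.64, adjusted p = 0.0443). Immune cells are part of the mean that proximal precursors and each of the remaining classes were set against. They are not part of it without 10x or C1, with the C1 name groups apart or with classes of 20 or more cells. Lrp2, Cubn and Amn were called higher by edgeR in 0 of the 8 other classes. Called higher were 2.43% of genes in distal precursors, 4.88% in cap mesenchyme, 5.18% in ureteric epithelium, 9.23% in early nephron epithelium and 9.98% in endothelium. Each class was set against a mean that holds proximal precursors, where these genes are high. Cubn and Amn had too few counts in some of these fits to be called. The SE was 152 for Cubn in early nephron and 5445 for Amn in endothelium, so the 0 says little of Cubn and Amn. Lrp2 was called higher in early nephron epithelium with 1000 variable genes (1.17, edgeR adjusted p = 0.00675) and with no doublet removed (1.41, adjusted p = 0.00303), and in distal precursors where each cell took its class by z score (1.63, adjusted p = 0.00564).

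Against cap mesenchyme alone, the progenitor from which the nephron forms, all 4 genes were again higher in proximal precursors. Cubn, which passed the filter through its proximal sums only, had to differ here as well, and its call supports nothing. The log2 fold changes were 4.02 for Lrp2 (SE 0.55, edgeR adjusted p = 0.000176) and 5.68 for Cubn (SE 1.10, adjusted p = 0.00256). For Amn the value was 5.66 (SE 0.79, adjusted p = 0.000354) and for Dab2 2.79 (SE 0.23, adjusted p = 3.4e-08). In this comparison 3.92% of genes were called higher and 3.21% lower. Its C1 cap mesenchyme sum pools the clusters of 127 and 82 cells, which differ in Lrp2. Without the 10x library, Lrp2 (3.76, adjusted p = 0.104) and Cubn (5.61, adjusted p = 0.0583) no longer passed, and Amn and Dab2 did.

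Proximal precursors were not uniform for these genes. In 10x, a subcluster of 32 cells led by Slc34a1, the sodium-phosphate transporter of the mature proximal tubule, had 332 CPM of Lrp2 (261 to 417), 108 CPM of Cubn (69.0 to 160), 314 CPM of Amn (245 to 397) and 386 CPM of Dab2 (309 to 477). Slc34a1 itself was at 1037 CPM there, against 11.2 to 99.5 CPM in the other 10x subclusters. All 4 genes were higher in it than in each of the other 4 subclusters, with no overlap of intervals. It was the shallowest of the 5, with a median of 6988 UMIs. The proliferation gene Mki67 was at 4.49 CPM there, against 86.3 to 116 CPM in the other subclusters.

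A 10x subcluster of 28 cells led by Osr2, a transcription factor of the early proximal nephron, had 173 CPM of Lrp2 (126 to 230) and 150 CPM of Dab2 (107 to 204), but 3.75 CPM of Cubn (0.095 to 20.9) and 45.0 CPM of Amn (23.3 to 78.7). The 10x subcluster of 64 cells led by Pdzk1, a scaffold of apical transporters, had 107 CPM of Lrp2 (81.1 to 138), 42.4 CPM of Cubn (26.9 to 63.6) and 179 CPM of Amn (145 to 218). The Cubn and Amn intervals of these subclusters do not overlap, while their Lrp2 intervals do. Drop-seq held a like pair for Lrp2 and Amn. Its subcluster of 36 cells led by Osr2 and Wnt16 had 71.9 CPM of Lrp2 (48.9 to 102), 4.64 CPM of Amn (0.562 to 16.8) and no Cubn UMI. Its subcluster of 85 cells led by Fxyd2 had 69.9 CPM of Lrp2 (52.2 to 91.7) and 192 CPM of Amn (162 to 227). It had 6.72 CPM of Cubn (2.18 to 15.7), which overlaps the interval of the 36 cells (up to 8.56 CPM). The Lrp2 intervals of this pair overlap almost wholly, and the Amn intervals lie apart. In 10x the Amn interval of the Osr2-led subcluster overlaps those of the subclusters of 59 cells (62.4 to 110 CPM) and 17 cells (48.7 to 115 CPM), which had 6.42 and 3.34 CPM of Cubn and 622 and 287 CPM of Osr2, against 1234 CPM of Osr2 in the Osr2-led one. Subclusters were cut from the cells of 1 library each, so these differences have no replicate error.

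**Figure D3:**
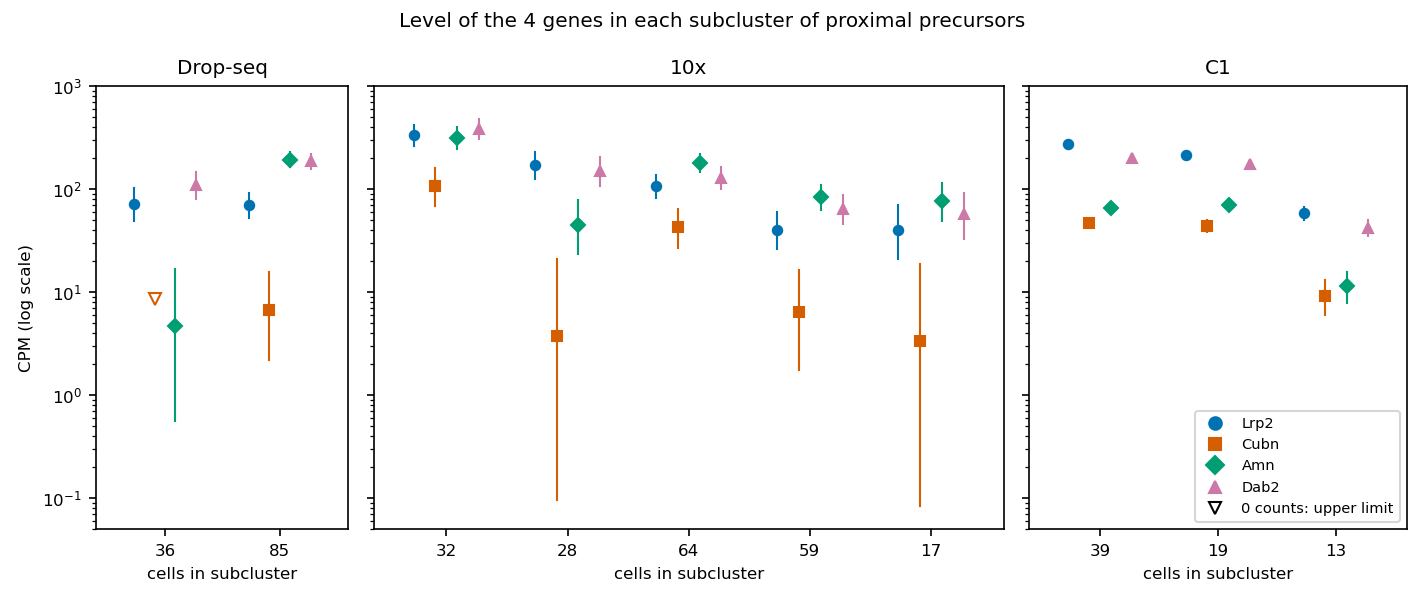
Level in CPM (log axis) of the 4 genes in each subcluster of proximal precursors, named by its number of cells and ordered by Lrp2 within a library; lines are exact 95% Poisson intervals and the triangle the upper limit at 0 counts. The Osr2-led subclusters of 36 Drop-seq and 28 10x cells have 4.64 and 45.0 CPM of Amn, against 192 CPM in the other Drop-seq subcluster and 314 CPM in the 32-cell subcluster of 10x.

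The 2 remaining 10x subclusters, of 59 and 17 cells, had 40.2 and 40.1 CPM of Lrp2 and 83.5 and 76.8 CPM of Amn, and their top 10 genes held as many early nephron markers (1) as proximal markers (1). In C1, subclusters of 39 and 19 cells had 275 and 213 CPM of Lrp2, 46.5 and 43.7 CPM of Cubn and 65.4 and 69.6 CPM of Amn. A C1 subcluster of 13 cells had 58.1, 9.09 and 11.4 CPM of these genes, with no proximal marker among its top 10 genes. It had 199 CPM of Osr2, against 151 and 82.2 CPM in those of 39 and 19 cells. C1 thus had no subcluster high in Osr2 that kept its Lrp2 level while Amn was low. Without these 59, 17 and 13 cells, an alternative chosen after the data were seen, the calls of Lrp2, Amn and Dab2 held. That of Cubn held as well, which supports nothing. The C1 cells fall into a pair of name groups whose meaning is not given, HT and E14. Proximal precursors had 236 CPM of Lrp2 in the 34 HT cells and 218 CPM in the 37 E14 cells, 64.8 and 24.5 CPM of Cubn, 76.6 and 46.3 CPM of Amn, and 148 and 180 CPM of Dab2. The calls of Lrp2, Amn and Dab2, and that of Cubn with the same limit, held with the name groups fitted as separate libraries.

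Within proximal precursors, counts of all 4 genes in the same cell were found 3 times among 121 Drop-seq cells (2.48%), 18 times among 200 10x cells and 12 times among 71 C1 cells (16.9%). Cells with none of the 4 numbered 21 (17.4%), 18 and 1 (1.41%). Cubilin and amnionless act as a complex, and in Drop-seq each of the 5 cells with a Cubn UMI also held Amn, against 55 of 116 cells without Cubn (47.4%). All 5 lay in the Drop-seq subcluster of 85 cells, where 68.2% of cells held Amn, against 5.56% in that of 36 cells. This contrast is therefore not apart from the difference between the subclusters. In 10x, 29 of 37 cells with Cubn held Amn (78.4%, interval 61.8 to 90.2%), against 91 of 163 without Cubn (55.8%, 47.9 to 63.6%). In C1 the shares were 16 of 27 (59.3%, 38.8 to 77.6%) against 28 of 44 (63.6%, 47.8 to 77.6%). Dab2 was found in 77.1% of Drop-seq and 72.3% of 10x cells with Lrp2, against 53.4% and 50.5% of those without it, and in 79.3% against 76.9% in C1. Cells were not brought to equal depth for these shares. Of all kept cells with both Lrp2 and Amn, proximal precursors were 26 of 32 by Drop-seq, 64 of 70 (91.4%) by 10x and 37 of 47 (78.7%) by C1.

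Across classes, Lrp2, Cubn and Amn shared their highest point in proximal precursors, while Dab2 was higher still in immune cells where that class was present. The mean Pearson correlation over the classes of each library (log2 of CPM plus 10) was 0.964 between Lrp2 and Amn, 0.944 between Lrp2 and Cubn, and 0.914 between Cubn and Amn. Those of Dab2 with Lrp2, Cubn and Amn were 0.425, 0.427 and 0.382. Among 6494 genes with a mean of 20 CPM or more, Sult1d1, a sulfotransferase gene, was the most like Lrp2 (0.977), Cubn (0.951) and Amn (0.972). Lrp2 was followed by Keg1 (0.955), Pdzk1 (0.955) and Ttc36 (0.936), all of them among the markers that named the class. For Cubn the list went on with Keg1 (0.949), Lrp2 (0.944), Pter (0.932) and Fut9, and for Amn with Lrp2 (0.964), Gucd1 (0.963) and Ttc36 (0.960). Dab2 was most like Maf (0.967), a transcription factor gene, then Apoe (0.828), Mcmbp (0.815), Glul (0.803) and Ftl1 (0.7997). Sult1d1, Pter, Fut9, Gucd1, Maf, Glul and Ftl1 were themselves used for clustering, while Apoe and Mcmbp were not. These are descriptions over 7 to 9 classes that share a library and its depth. The highest other class had 8.77, 13.6 and 21.1 CPM of Lrp2 in Drop-seq, 10x and C1. For Cubn it had 1.49, 1.11 and 2.52 CPM, and for Amn 14.98, 27.2 and 2.61 CPM. Beside the 10 CPM added before the log, the proximal point weighs most. High correlations among these genes had to follow from their high level in that class and add nothing to it. The part of immune cells in the lower values of Dab2 was not tested.

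Of 66 genes in 5 lists of endocytic uptake, 60 were tested in proximal precursors against the mean of the other classes, and 14 were called higher and 2 lower, beside 6.22% and 2.11% of all genes tested. These lists, like the 4 genes, were kept out of clustering, whereas most other genes of high variance were used for it and left out of the test. Over all 12507 genes that passed the filter, 10.4% were higher and 3.73% lower. The lists were chosen with earlier results of these data known, so these counts are a description and no support. The 14 include Ttr, which passed the filter through proximal sums only and had to differ. The median log2 fold change of the lists was 0.09, against 0.03 over all genes tested.

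Among the chaperone and adaptors of the receptors, 2 of 10 were higher and 0 lower. Lrpap1, the chaperone that keeps megalin free of ligand on its way to the surface, was at 280, 321 and 471 CPM in proximal precursors of Drop-seq, 10x and C1, against 59.9, 80.4 and 104 CPM in the other classes together (log2 fold change 2.27, SE 0.11, edgeR adjusted p = 1.21e-12). Myo6, the motor myosin that moves endocytic vesicles inward, was at 147, 188 and 280 CPM, against 47.6, 43.5 and 49.5 CPM (1.98, SE 0.29, adjusted p = 0.000299). Without 10x, Myo6 did not pass (2.28, adjusted p = 0.0649).

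Of 16 clathrin coat genes, 1 was higher and 1 lower. Picalm, a clathrin assembly gene, was at 73.2, 74.7 and 147 CPM in proximal precursors, against 41.2, 39.4 and 73.6 CPM (0.90, SE 0.16, edgeR adjusted p = 0.000471). Ap2b1, a subunit of the AP-2 adaptor, was lower (-0.81, SE 0.25, adjusted p = 0.0422), at 13.6, 34.3 and 7.69 CPM against 24.8, 43.1 and 18.3 CPM. Ap2b1 was called in 11 of 20 alternatives, Hip1 (-0.64, adjusted p = 0.0674), a clathrin-binding endocytic gene, was called lower in 13, and Cltc, the clathrin heavy chain (0.39, adjusted p = 0.114), higher in 9. The Ap2b1 call was lost with any of the 3 libraries left out (adjusted p of 0.319, 0.171 and 0.102 with Drop-seq, 10x or C1 left out).

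Of 12 tested genes of endosome sorting and acidification, 4 were higher and 0 lower. Atp6v0a4, a kidney subunit of the proton pump, was at 15.3, 17.9 and 2.38 CPM in proximal precursors, against 1.63, 1.09 and 0.645 CPM in the other classes together (5.17, SE 0.78, edgeR adjusted p = 0.000128). It reached the filter's minimum in only 2 of the 21 sums of other classes. Its fitted size exceeds the ratio of these levels in each library. Atp6v1a, a catalytic subunit of the pump, had a log2 fold change of 1.24 (SE 0.18, adjusted p = 4.39e-05), and Rab11a, a GTPase of recycling endosomes, one of 1.498 (SE 0.12, adjusted p = 8.52e-09). Clcn5, the endosomal chloride-proton exchanger mutated in Dent disease, was at 49.4, 78.8 and 14.6 CPM, against 19.5, 20.1 and 2.84 CPM (2.03, SE 0.46, adjusted p = 0.0106). Its call was lost without Drop-seq (2.45, adjusted p = 0.0532) and without 10x (2.19, adjusted p = 0.081).

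In the LDL receptor family other than Lrp2, 0 of 9 tested genes were called in either direction by edgeR, and 0 by DESeq2 or limma. Before adjustment, 2 of the 9 were under the threshold of 0.05, Vldlr and Lrp6, both with higher fitted values in proximal precursors. Vldlr was called higher in 9 of 20 alternatives, Lrp6 in 2, and Lrp4 was called lower in 1. Lrp6, the WNT co-receptor and the family member with the highest mean CPM, had a log2 fold change of 0.51 (SE 0.19, edgeR adjusted p = 0.0967).

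Of 13 tested genes of ligands and vitamin handling, 7 were higher and 1 lower. The 7 include Ttr, which passed the filter through proximal sums only, so its call supports nothing. Gc, the vitamin D binding protein that megalin retrieves, was at 43.4, 38.4 and 50.9 CPM in proximal precursors of Drop-seq, 10x and C1, against 4.43, 0.543 and 1.97 CPM (log2 fold change 7.08, SE 0.54, edgeR adjusted p = 1.7e-08). The fitted size of Gc exceeds the ratio of these levels in each library. Gc reached the filter's minimum in only 4 of the 21 sums of other classes. Folr1, the folate receptor, was at 117, 177 and 145 CPM, against 4.76, 8.21 and 6.50 CPM (5.82, SE 0.37, adjusted p = 8.52e-09). These ligand and receptor transcripts were counted in the same class that held the receptors, in all 3 libraries. Clu, the extracellular chaperone clusterin, was at 256, 410 and 1085 CPM, against 71.9, 49.9 and 216 CPM (2.70, SE 0.36, adjusted p = 0.000258), and did not pass without 10x (2.49, adjusted p = 0.0933).

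Transport proteins gave smaller counts. Ttr, the thyroxine carrier transthyretin, had a log2 fold change of 4.41 (SE 0.80, edgeR adjusted p = 0.000706) on 5, 17 and 33 counts in proximal precursors of Drop-seq, 10x and C1, and was tested in 12 of 20 alternatives. Like Cubn, it passed the filter on low counts through proximal sums only, so it had to differ and its call supports nothing. Rbp4, the retinol carrier, had one of 2.97 (SE 0.73, adjusted p = 0.0117) on 5, 5 and 173 counts, and lost its call without Drop-seq (2.69, adjusted p = 0.111) and without 10x (1.48, adjusted p = 0.225). Its levels were 4.26, 2.56 and 8.93 CPM, against 2.22, 2.03 and 4.72 CPM in the other classes together. The fitted size exceeds the ratio of these levels in each library. Rbp4 reached the filter's minimum in only 4 of the 21 sums of other classes, which the fit weighs equally. Tcn2, the vitamin B12 carrier transcobalamin, was at 67.2, 92.1 and 56.1 CPM, against 12.9, 26.3 and 18.8 CPM (1.97, SE 0.20, adjusted p = 2.82e-07). Apoe was called higher (0.98, SE 0.27, adjusted p = 0.0362), yet its level was above that of the other classes together in 1 of 3 libraries, at 96.2, 103 and 67.7 CPM against 17.8, 174 and 155 CPM. Apoe is among the 10 leading genes of the immune class in 10x and C1, whose part in this was not tested. Without Drop-seq the fitted value was 0.10 (adjusted p = 0.954). Cst3, the filtered protein cystatin C, was lower (-0.45, SE 0.14, adjusted p = 0.0444), a call lost with any library left out (adjusted p of 0.266, 0.608 and 0.243 with Drop-seq, 10x or C1 left out).

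**Figure D4:**
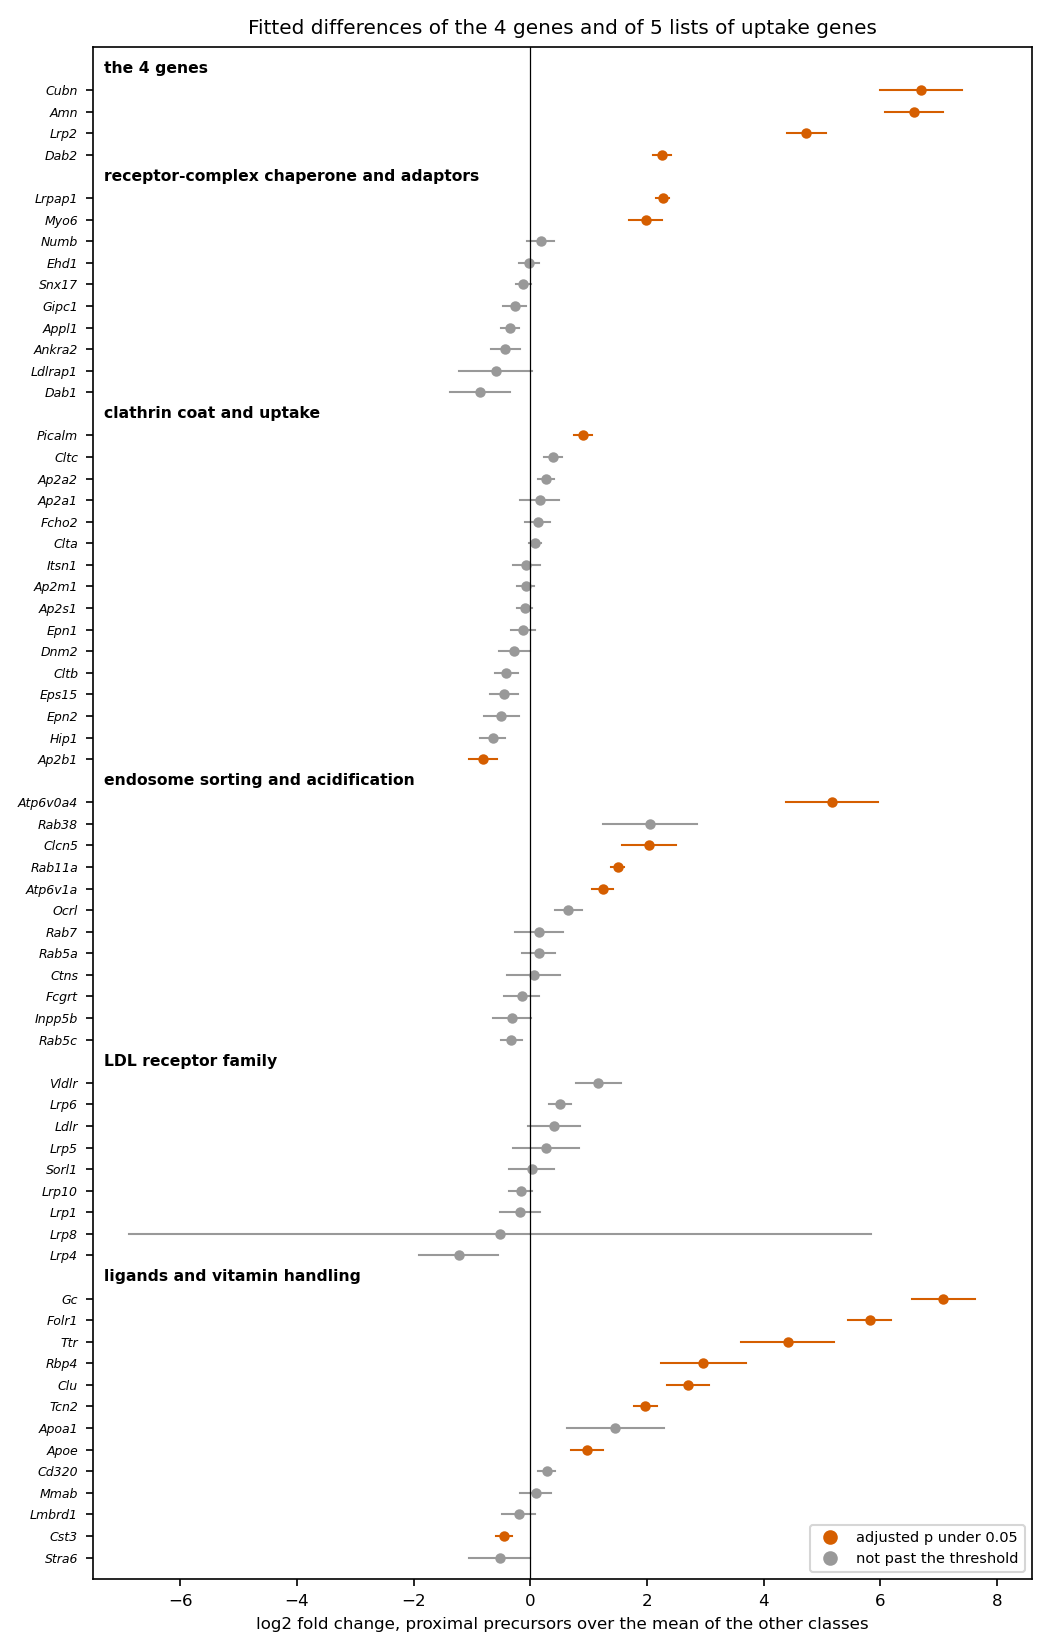
Log2 fold change of proximal precursors over the mean of the other classes, with SE as lines, for the 4 genes and the 60 tested members of 5 uptake lists; orange marks an edgeR adjusted p under 0.05. The 4 genes lie between 2.25 and 6.70, and 14 list members are higher and 2 lower. Cubn and Ttr passed the filter through proximal sums only, so their calls support nothing.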

How the data were processed

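Cells of 3 libraries of embryonic mouse kidney were analysed, 1 per platform. The authors deposited tables of whole-number counts for each gene and cell, from which all values here come. Per the submitters' processing notes, Cell Ranger 1.3.0 was used for 10x, Bowtie2 2.2.7 for both other libraries, and build mm10 for all. Beyond this the counting, its annotation and strand setting were not given in the sources used here. In the labels, the preparation text, on sequencing of 3' cDNA ends by Drop-seq, is the same for all 3 samples. Normalized tables of the same cells were not used. The cells kept held 17751487 UMIs (Drop-seq), 17465306 UMIs (10x) and 171350454 reads (C1), and precision is limited by these counts.

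Cells with 500 or more genes and at most 20% mitochondrial counts were kept (the C1 table lists no mitochondrial gene). Scrublet, with an expected rate of 6%, removed 17 10x and 10 C1 doublets; in Drop-seq under 0.5% were called, so none was removed. The filters removed 36 Drop-seq and 43 10x barcodes with few genes and 105 10x barcodes with high mitochondrial shares. Each library was clustered alone in scanpy 1.11.5 (10000 counts per cell, log1p, 2000 variable genes, 30 components, 15 neighbours, Leiden resolution 1, leidenalg 0.10.2, seed 1, Python 3.11.15), and nephron clusters were clustered again. Barred from the variable genes were the 4 genes, the 5 uptake lists and the genes of cell cycle, haemoglobin, ribosomes and mitochondria. Clusters were named by mean marker z score, given 3 markers above the rest in 5% or more of the cells and no other class with more markers among the top 10 genes. Unnamed clusters held 103 Drop-seq, 109 10x and 116 C1 cells.

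Counts of shared genes were summed per library and class (10 or more cells, 2 or more libraries; erythroid and unnamed clusters left out) and fitted in edgeR 4.0.16 (R 4.3.3; TMM, filterByExpr, robust quasi-likelihood F test, library as block, 13 residual degrees of freedom). Two-sided p-values were adjusted (Benjamini-Hochberg, threshold 0.05) over 7237 genes; the 5270 used to cluster or name cells were left out. Each standard error is derived from the F statistic and the fitted log2 change (its size over the root of F). The fit was tested on simulated data. Zero counts are given the limit of 3 counts. The named genes are the 4 genes, up to 6 list members past the threshold per list by size of change and otherwise the member with the highest mean CPM, the 5 genes most like each of the 4 (1 of which is not reported here), and markers where the class is checked; as list members, Apoe, Cst3, Vldlr, Lrp4, Hip1 and Cltc fall outside this rule and were named after their values were seen, as was the use of other subcluster genes. The genes and lists were chosen with earlier results of these data known. Alternatives were DESeq2 1.42.0, limma 3.58.1 and other filters, clusterings and library sets. Protein sequences were not analysed here.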

Additional observations from a re-analysis of the deposited data

How the results depend on the processing

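The direction and the call of Lrp2, Amn and Dab2 in proximal precursors against the mean of the other classes held in all 20 alternatives, and those of Cubn, which passed the filter through proximal sums only, in the 19 that tested it (it did not pass the count filter without C1). Log2 fold changes ran from 4.47 to 5.39 for Lrp2, 5.08 to 7.88 for Cubn, 5.94 to 6.91 for Amn and 1.99 to 2.91 for Dab2. Against cap mesenchyme, Lrp2 (3.76) and Cubn (5.61) did not pass without 10x; leaving out 1 library gave 3.76 to 4.63 for Lrp2 and 5.61 to 7.48 for Cubn. The number of genes called higher was 450, and it was 236 with limma, 137 with no replicate block, 983 with 1000 variable genes, 905 with 1 round of clustering, 1460 where each cell took its class by z score, and 1302 with all genes in the adjustment. The number called lower was 153, and in the same order 95, 6, 437, 490, 770 and 467, with 265 by DESeq2, 267 with no doublet removed and 234 without the tied subclusters. With 1 library left out, the counts ran from 187 to 494 higher and from 35 to 155 lower. Dab2 changed sign in podocytes without C1 (0.26), with the C1 name groups apart (0.25) and with classes of 20 or more cells (0.24), and in endothelium under the last 2 (0.15 and 0.10). In these settings the immune class did not qualify for the fit, so the mean of the other classes lacked it. Its part in these changes was not tested. Proximal levels depended on where the class was cut, and in 10x ran from 109 to 259 CPM for Lrp2, 27.0 to 79.0 CPM for Cubn, 128 to 246 CPM for Amn and 130 to 280.2 CPM for Dab2 over 9 alternatives. The alternatives without the 5 barcodes of highest count per library, without tied subclusters and without the C1 early nephron class were chosen after seeing the data. No paired analysis was possible because each group is 1 library; the library is the block of the fit, since the classes of a library come from the same cells. Drop-seq, with 5 Cubn UMIs, limits what can be said of Cubn there.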
